A study of Mus musculus with 6 samples.

Results

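Sterol synthesis was followed in alveolar macrophages (AMs), the macrophages of the lung airspaces, through 27 genes: 20 genes of enzymes that build cholesterol from acetyl-CoA and 7 genes of SREBP2 and the proteins that control or respond to it. The genes were chosen by name, as the enzymes in pathway order and the SREBP2 regulators and targets, and all 27 were found among the 24341 gene entries of the deposited table. RNA was sequenced from AMs in the bronchoalveolar lavage (BAL) of female C57BL/6 mice, aged 6 to 10 weeks, of 2 genotypes, CD44+/+ and CD44-/-, with 3 samples of each. The 3 samples of a genotype pooled the BAL of 4, 2 and 2 mice, so the error given here is the spread between unequal pools. The labels do not tie the pool sizes to the replicate numbers. No mouse was treated, the red blood cells of the lavage were lysed, and CD44 was absent from the whole CD44-/- animal and not from AMs alone. Cd44 transcripts measured between 527 and 540 FPKM in CD44+/+ AMs and between 51.4 and 54.7 FPKM in CD44-/- AMs, which matches the labels of all 6 samples. FPKM counts the fragments of a transcript per length of the transcript and per total of mapped fragments, so levels can be set side by side between genes. The number of reads behind each value is unknown, and relative depth lay between 0.814 (CD44-/- replicate 2) and 1.05 (CD44+/+ replicate 3) of that of CD44+/+ replicate 1.

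Cholesterol is made in the endoplasmic reticulum by a chain of enzymes that joins acetyl-CoA units into isoprenoids, joins isoprenoids into squalene, closes squalene into lanosterol and trims lanosterol to cholesterol. SREBP2, the product of Srebf2, is a membrane-bound transcription factor that switches these genes on together. SCAP carries it to the Golgi when membrane sterol is low, the proteases encoded by Mbtps1 and Mbtps2 release its active part there, and INSIG proteins hold SCAP back when sterol is plentiful. AMs take up surfactant, which is rich in lipid and contains cholesterol, and can obtain sterol in that way as well as by synthesis.

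Promoter sequence was looked at first, since the enzyme genes share a regulator. RefSeq start sites (GRCm38.p6) gave windows for 23 of the 27 genes, and Fdps, Fdft1, Sqle and Stard4 had none in the table used. Searched on both strands were TCACNCCAC and CACCCCAC, written forms of a sterol regulatory element that can overlap each other, CCAAT, which is bound by NF-Y, and GGGCGG, which is bound by Sp1 and related factors. These 7 stretches are each the 250 bases before a start site on the strand of the gene. They show both genes with a sterol element match and genes with between 1 and 5 CCAAT boxes (Srebf2, Insig1, Msmo1 and Mvk). They also show 1 control gene, Mbtps1, with no match to either sterol element form and no CCAAT. The search itself covered the 250 bases before and the 50 bases after each start site. Capitals mark TCACNCCAC, CACCCCAC and CCAAT, or ATTGG where CCAAT lies on the other strand.
Hmgcs1 (chr13:119690101-119690350, plus strand): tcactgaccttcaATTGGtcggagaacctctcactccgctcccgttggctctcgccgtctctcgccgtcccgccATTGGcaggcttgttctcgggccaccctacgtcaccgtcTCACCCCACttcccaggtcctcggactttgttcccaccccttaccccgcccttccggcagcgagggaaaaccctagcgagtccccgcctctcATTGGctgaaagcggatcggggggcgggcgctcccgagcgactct
Acat2 (chr17:12960726-12960975, minus strand): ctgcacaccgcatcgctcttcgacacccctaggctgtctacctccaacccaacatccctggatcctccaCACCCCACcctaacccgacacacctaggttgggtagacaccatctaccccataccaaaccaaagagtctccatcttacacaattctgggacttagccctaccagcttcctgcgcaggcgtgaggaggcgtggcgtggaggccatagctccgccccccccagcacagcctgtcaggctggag
Mvk (chr5:114444019-114444268, plus strand): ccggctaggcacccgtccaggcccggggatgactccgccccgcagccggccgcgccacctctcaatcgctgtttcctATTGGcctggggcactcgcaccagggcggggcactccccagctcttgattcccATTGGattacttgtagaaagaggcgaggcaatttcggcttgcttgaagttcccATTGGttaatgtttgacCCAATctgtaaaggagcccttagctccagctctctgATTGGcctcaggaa
Msmo1 (chr8:64733579-64733828, minus strand): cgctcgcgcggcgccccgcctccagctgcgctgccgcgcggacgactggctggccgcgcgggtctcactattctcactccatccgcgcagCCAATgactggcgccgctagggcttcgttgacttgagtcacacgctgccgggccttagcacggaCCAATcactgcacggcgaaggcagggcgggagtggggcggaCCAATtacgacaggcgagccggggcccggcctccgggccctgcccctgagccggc
Srebf2 (chr15:82147019-82147268, plus strand): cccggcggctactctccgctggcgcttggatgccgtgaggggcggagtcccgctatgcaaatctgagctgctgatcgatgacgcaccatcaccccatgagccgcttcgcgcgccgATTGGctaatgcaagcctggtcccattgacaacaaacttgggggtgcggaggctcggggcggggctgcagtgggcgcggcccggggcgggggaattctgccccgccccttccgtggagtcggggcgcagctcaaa
Insig1 (chr5:28071162-28071411, plus strand): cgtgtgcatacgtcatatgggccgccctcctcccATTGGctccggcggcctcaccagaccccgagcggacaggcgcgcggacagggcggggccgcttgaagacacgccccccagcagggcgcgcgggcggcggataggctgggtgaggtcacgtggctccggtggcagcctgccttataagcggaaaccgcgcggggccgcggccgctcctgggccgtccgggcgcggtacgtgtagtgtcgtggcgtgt
Mbtps1 (chr8:119558762-119559011, minus strand): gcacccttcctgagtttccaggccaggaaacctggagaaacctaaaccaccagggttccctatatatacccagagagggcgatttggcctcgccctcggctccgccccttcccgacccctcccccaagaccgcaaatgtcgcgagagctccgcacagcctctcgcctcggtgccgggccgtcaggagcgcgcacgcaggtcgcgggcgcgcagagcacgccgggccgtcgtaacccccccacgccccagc
TCACNCCAC was found once among the 23 genes, in Hmgcs1 with its first base at -137 from the start site, and is in 1.24% of the 32851 windows of this length and 1.44% of 27025 genes. CACCCCAC was found within the same match in Hmgcs1 and at -181 in Acat2, and is in 2.87% of all windows. CCAAT was in at least 1 window of 19 of the 23 genes, where 41.1% of all genes with a window have it. Acat2, Scap, Mbtps1 and Mbtps2 were the 4 genes without it. Of the 15 genes with a window and a lower level at an unadjusted p under 0.05 (described next) 14 had CCAAT, and of the other 8 genes with a window 5 had it, a count given as a description. GGGCGG was in 20 of the 23 genes and in 38.2% of all genes. A match is a run of letters in this window and does not show that a factor was bound in these cells. Only these exact strings were searched, so a window without a match is not shown to lack a sterol element.

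In AMs from CD44-/- mice, 23 of the 27 transcripts had lower fitted levels than in AMs from CD44+/+ mice, while 44.2% of all 10800 tested genes did. In samples of bulk RNA, fewer cells that express a gene and less of its RNA per cell cannot be told apart. The median log2 fold change (CD44-/- over CD44+/+, on log2 of FPKM + 0.1) was -0.32 for the 27 genes and 0.01 for all genes tested. An unadjusted p under 0.05 in the limma comparison was reached by 19 of the 27, all lower, where 2.94% of all genes tested were lower and 4.75% higher by the same measure. None of the 27 reached an adjusted p under 0.05, which 0.111% of all genes tested did, and the lowest adjusted p among them was 0.234 (limma, Benjamini-Hochberg over all genes tested), for Sqle. In 13 of the 27 every CD44-/- sample lay below every CD44+/+ sample, where 4.88% of all genes tested did so, and none showed the opposite order, which 6.75% of all genes did. With the replicate number as a block in the fit 19 of the 27 were again lower at an unadjusted p under 0.05, where 3.67% of all genes were, and none had an adjusted p under 0.05, where 0.0833% of all genes had. The study's own test on these samples, Cuffdiff, did call Srebf2 and several cholesterol synthesis genes lower at an adjusted p under 0.05. These counts are therefore no independent evidence of the direction, and the absence of adjusted calls holds for the limma comparison only. The number lower at an unadjusted p under 0.05 was 12 without CD44+/+ replicate 3, where 2.94% of all genes were, and 10 without replicate 2 of both genotypes, where 1.18% of all genes were. The latter is an alternative chosen after the data were seen because these 2 samples held the most erythroid RNA.

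**Figure D1:**
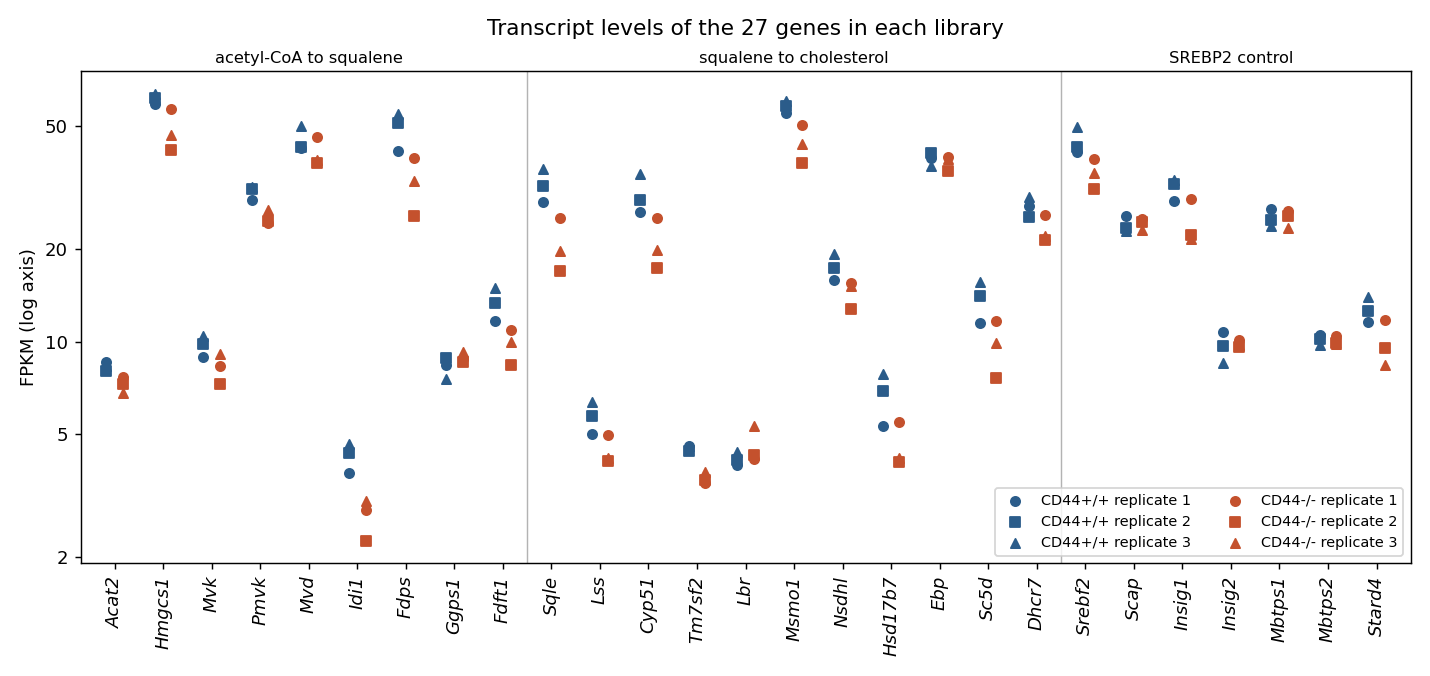
Level of each of the 27 genes (x axis, in pathway order) in FPKM on a log axis, with 1 point per sample. CD44+/+ samples are blue and CD44-/- samples red, and circles, squares and triangles are replicates 1, 2 and 3. The red points lie below all blue points of the same gene in 13 genes, Hmgcs1 is the highest gene in every sample, and Idi1 is the lowest in all 3 CD44-/- samples.

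The first enzymes carry acetyl-CoA to the isoprenoid units. Acat2, the cytosolic thiolase that joins 2 acetyl-CoA molecules, measured 8.58, 8.06 and 8.35 FPKM in CD44+/+ replicates 1, 2 and 3 and 7.68, 7.31 and 6.82 FPKM in CD44-/- replicates 1, 2 and 3. The samples did not overlap, and the log2 fold change was -0.20 ± 0.08 (SE, limma adjusted p = 0.581). Its near copy Acat3 measured at most 0.0908 FPKM in any sample. Hmgcs1 (chr13:119690351-119708260 in mm10, plus strand), the synthase that makes HMG-CoA, had the highest mean of the 27 in CD44+/+ AMs, with samples that overlapped those of Msmo1. It measured 59.1, 61.6 and 63.8 FPKM in CD44+/+ AMs and 56.9, 41.7 and 46.8 FPKM in CD44-/- AMs. CD44-/- replicate 1 lay close to the CD44+/+ range and the other two well below it.

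Mevalonate is then phosphorylated in a chain of steps. Mvk, mevalonate kinase, measured 8.95, 9.86 and 10.4 FPKM in CD44+/+ AMs and 8.32, 7.26 and 9.13 FPKM in CD44-/- AMs, and the highest CD44-/- sample lay above the lowest CD44+/+ sample. Pmvk (chr3:89459118-89469009), phosphomevalonate kinase, measured 28.7, 31.2 and 31.7 FPKM in CD44+/+ AMs and 24.2, 24.6 and 26.8 FPKM in CD44-/- AMs. Here all 3 CD44-/- samples, replicate 1 included, stood apart from the CD44+/+ samples, with a log2 fold change of -0.28 ± 0.06 (SE, limma adjusted p = 0.272). Mvd, the decarboxylase that yields isopentenyl diphosphate, measured 42.5, 42.7 and 50.2 FPKM in CD44+/+ AMs and 46.2, 37.9 and 39.0 FPKM in CD44-/- AMs. Its samples overlapped, and the 95% interval of its log2 fold change of -0.14 ran from -0.35 to 0.07. Leaving out 1 sample moved the log2 fold change of Mvd between -0.06 (without CD44+/+ replicate 3) and -0.23 (without CD44-/- replicate 1, limma unadjusted p = 0.0270, adjusted p = 0.476), and it was -0.08 without CD44-/- replicate 2.

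The isoprenoid units are then interconverted and joined, towards squalene or away from it. Idi1 (chr13:8885606-8892396, plus strand), which interconverts the isoprenoid units, measured 3.74, 4.35 and 4.65 FPKM in CD44+/+ AMs and 2.84, 2.26 and 3.03 FPKM in CD44-/- AMs, with a mean 36.2% lower in CD44-/- AMs. The samples were separated by a wider gap, 0.29 on the log2 scale, than in any other of the 27 genes. Its log2 fold change was -0.63 ± 0.14 (SE, limma adjusted p = 0.237). Fdps, which makes farnesyl diphosphate, measured 41.7, 51.2 and 54.7 FPKM in CD44+/+ AMs and 39.3, 25.6 and 33.2 FPKM in CD44-/- AMs, with a log2 fold change of -0.60 ± 0.15 (SE). CD44+/+ replicate 1 and CD44-/- replicate 1 nearly met, while replicate 2 of each genotype lay 0.99 apart on the log2 scale. Ggps1, which leads away from sterols to geranylgeranyl diphosphate, measured 8.37, 8.86 and 7.58 FPKM in CD44+/+ AMs and 8.81, 8.56 and 9.25 FPKM in CD44-/- AMs, with overlap and a 95% interval of -0.08 to 0.29. Arid4b, which overlaps Ggps1 on the other strand, had a log2 fold change of 0.10. Fdft1, the squalene synthase, measured 11.7, 13.3 and 14.9 FPKM against 10.9, 8.41 and 9.95 FPKM, without overlap. Its locus entry in the table is shared with Ctsb, a gene on the other strand whose mean level was 415 FPKM in CD44+/+ AMs and 421 FPKM in CD44-/- AMs. The library kit was stranded, and whether counting used strand is not given in the sources used here.

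Squalene is committed to sterols by its epoxidase and cyclase. Sqle (chr15:59315092-59331193, plus strand), the epoxidase and a rate-limiting step of the later pathway, measured 28.3, 32.1 and 36.4 FPKM in CD44+/+ AMs and 25.1, 17.0 and 19.7 FPKM in CD44-/- AMs. Every CD44-/- sample was lower, and the log2 fold change of -0.66 (95% interval -0.98 to -0.33) was the largest in size of the 27 in the main fit. Idi1 was larger in size with quantile normalization (-0.68 against -0.66 for Sqle). The same held without CD44-/- replicate 3 (-0.72 against -0.63) and, narrowly, without CD44+/+ replicate 3 (-0.567 against -0.566). Without CD44-/- replicate 1 the adjusted p of Sqle was 0.0516 (limma), the lowest of any of the 27 genes under the alternatives tried. Lss, the cyclase that makes lanosterol, measured 5.01, 5.73 and 6.36 FPKM against 4.99, 4.09 and 4.20 FPKM. The first replicates of the genotypes nearly met, and the other samples lay apart.

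The enzymes that trim lanosterol were mostly lower as well. Cyp51 (chr5:4080674-4104697, minus strand), which removes the first methyl group, measured 26.3, 28.9 and 34.9 FPKM in CD44+/+ AMs and 25.1, 17.4 and 19.9 FPKM in CD44-/- AMs, with a log2 fold change of -0.53 ± 0.14 (SE). Msmo1 (chr8:64718145-64733578, minus strand), the sterol C4-methyl oxidase, measured 55.3, 58.0 and 60.3 FPKM against 50.6, 37.9 and 43.7 FPKM. Nsdhl, which acts with it in the same demethylation, measured 15.9, 17.3 and 19.2 FPKM against 15.5, 12.8 and 15.1 FPKM. In these 3 genes no sample of one genotype reached into the other, and CD44-/- replicate 2 was the lowest of all 6. Hsd17b7, the ketoreductase of that complex, measured 5.34, 6.93 and 7.88 FPKM against 5.49, 4.07 and 4.19 FPKM, so that CD44-/- replicate 1 lay above CD44+/+ replicate 1. Sc5d, the sterol desaturase, showed the same overlap, at 11.5, 14.1 and 15.6 FPKM against 11.7, 7.60 and 9.92 FPKM. For Dhcr7, the reductase that acts on 7-dehydrocholesterol, the values were 27.6, 25.4 and 29.5 FPKM against 25.8, 21.4 and 22.0 FPKM, with overlap at 1 sample. Ebp, the sterol isomerase, measured 39.4, 41.0 and 37.2 FPKM against 39.7, 35.8 and 39.0 FPKM, and the 95% interval of its log2 fold change, from -0.18 to 0.10, lies above the fold changes of Sqle, Idi1 and Fdps.

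A sterol double bond is reduced by the product of either Tm7sf2 or Lbr, and the ratio of these genes was compared. Tm7sf2, the reductase that resides in the endoplasmic reticulum, measured 4.58, 4.42 and 4.59 FPKM in CD44+/+ AMs and 3.48, 3.56 and 3.78 FPKM in CD44-/- AMs. Lbr, whose product also binds lamin B at the inner nuclear membrane, measured 3.97, 4.13 and 4.40 FPKM in CD44+/+ AMs and 4.15, 4.29 and 5.32 FPKM in CD44-/- AMs. All 3 CD44-/- samples were below the CD44+/+ samples for Tm7sf2, by a mean of 20.4%, whereas those for Lbr overlapped. The ratio of Tm7sf2 to Lbr within a sample was 1.15, 1.07 and 1.04 in CD44+/+ AMs and 0.839, 0.830 and 0.711 in CD44-/- AMs, without overlap. The difference in log2 ratio was -0.46, with p = 0.1 in an exact two-sided permutation test (n = 3 per genotype), which is the smallest p that 3 samples against 3 allow, and 0.133 adjusted over the 4 ratios compared. The locus entry of Tm7sf2 is shared with Vps51, whose log2 fold change was -0.02.

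**Figure D2:**
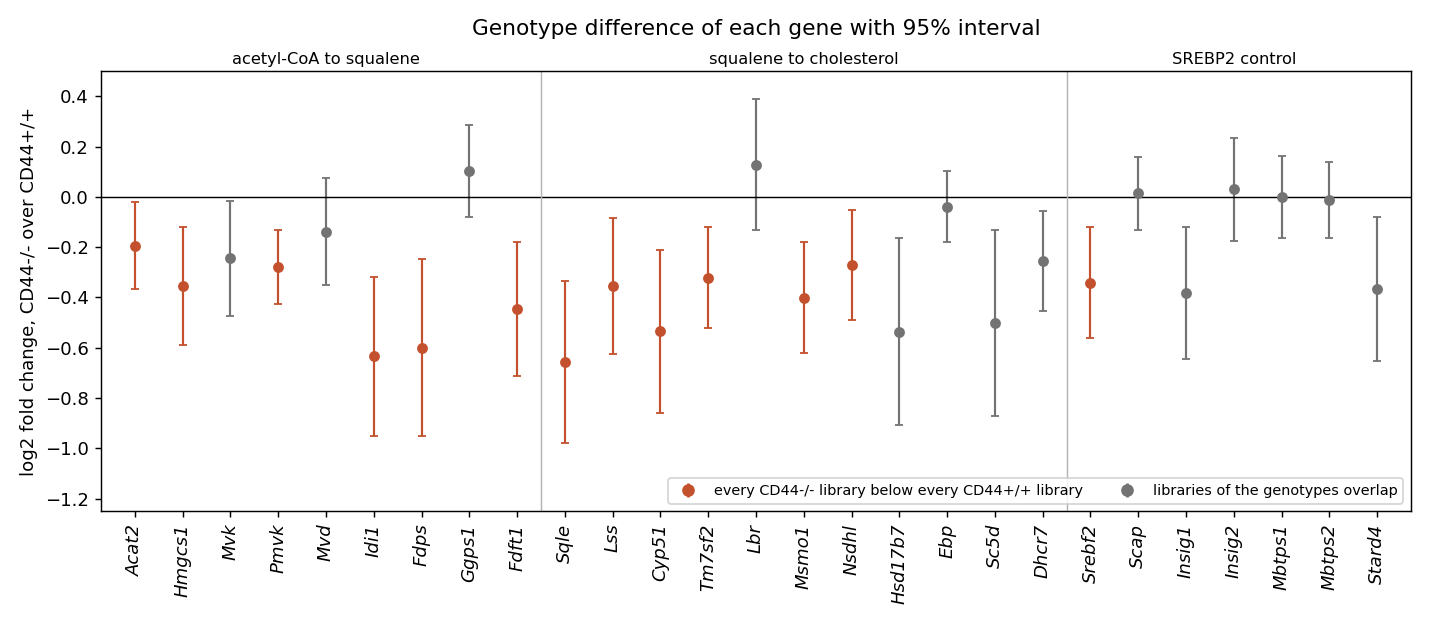
Log2 fold change of CD44-/- over CD44+/+ AMs (y axis) for each gene (x axis) with its 95% interval from the limma comparison. Red marks the 13 genes in which every CD44-/- sample lay below every CD44+/+ sample and grey the genes whose samples overlapped. Values ran from -0.66 for Sqle to 0.13 for Lbr, and the intervals of Mvd, Ggps1, Lbr, Ebp, Scap, Insig2, Mbtps1 and Mbtps2 include 0.

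Counted by stage, the 9 genes before squalene had a median log2 fold change of -0.28, with 8 lower, 7 of them at an unadjusted p under 0.05, and 6 lower without overlap. The 11 genes from squalene to cholesterol had a median of -0.36, with 10 lower, 9 of them at an unadjusted p under 0.05, and 6 lower without overlap. Over all genes tested these shares were 44.2%, 2.94% and 4.88%. The summed level of the 20 enzymes was 437, 469 and 503 FPKM in CD44+/+ AMs and 417, 330 and 371 FPKM in CD44-/- AMs. The lowest CD44+/+ sum and the highest CD44-/- sum, both of replicate 1, were the closest of these values.

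Of the 7 control genes, Srebf2, Insig1 and Stard4 were lower at an unadjusted p under 0.05, where 2.94% of all genes were, and the median log2 fold change of the 7 was -0.01. Srebf2 (chr15:82147269-82204960, plus strand), which encodes SREBP2, measured 41.1, 42.8 and 49.8 FPKM in CD44+/+ AMs and 39.0, 31.3 and 35.2 FPKM in CD44-/- AMs. All 3 CD44-/- samples were lower, with a log2 fold change of -0.34 ± 0.10 (SE, limma adjusted p = 0.385). Insig1 (chr5:28071412-28078662, plus strand), an SREBP2 target that in turn retains SCAP, measured 28.6, 32.5 and 33.4 FPKM against 29.1, 22.2 and 21.6 FPKM. Stard4, a cytosolic sterol carrier whose gene SREBP2 activates, measured 11.6, 12.6 and 14.0 FPKM against 11.8, 9.57 and 8.39 FPKM. In both genes CD44-/- replicate 1 lay just above CD44+/+ replicate 1 and the other CD44-/- samples lay below all CD44+/+ samples, with log2 fold changes of -0.38 ± 0.12 (SE) for Insig1 and -0.37 ± 0.13 (SE) for Stard4.

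The genes for transport and cleavage of SREBP2 did not reach an unadjusted p under 0.05. Scap measured between 22.9 and 25.5 FPKM in CD44+/+ AMs and between 23.0 and 24.9 FPKM in CD44-/- AMs. Mbtps1, the site 1 protease, measured between 23.7 and 26.8 FPKM against 23.3 to 26.5 FPKM, and Mbtps2, the site 2 protease, between 9.74 and 10.5 FPKM against 9.83 to 10.4 FPKM. The 95% intervals of the log2 fold changes were -0.13 to 0.16 for Scap, -0.16 to 0.16 for Mbtps1 and -0.17 to 0.14 for Mbtps2. None of them reaches the fold change of Srebf2, but the interval of Srebf2, -0.56 to -0.12, overlaps all of them. The difference between these genes was not tested. Insig2, which also retains SCAP, measured 10.7, 9.71 and 8.56 FPKM against 10.1, 9.59 and 9.79 FPKM, with an interval of -0.18 to 0.24. The ratio of Insig1 to Insig2 was 2.66, 3.35 and 3.90 in CD44+/+ AMs and 2.87, 2.32 and 2.21 in CD44-/- AMs, with overlap at replicate 1 (difference in log2 ratio -0.41, exact two-sided permutation test, n = 3 per genotype, p = 0.2, also 0.2 adjusted over 4 ratios).

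A second ratio set Srebf2 against Srebf1, the gene of SREBP1, which acts mainly on fatty acid synthesis. Srebf1 measured 37.7, 37.6 and 35.0 FPKM in CD44+/+ AMs and 38.4, 41.3 and 38.7 FPKM in CD44-/- AMs, where every CD44-/- sample was the higher. Srebf2 over Srebf1 was 1.09, 1.14 and 1.42 in CD44+/+ AMs and 1.02, 0.758 and 0.910 in CD44-/- AMs, without overlap, a difference of -0.44 in the log2 ratio. Sqle over Lss, neighbours in the pathway, was 5.65, 5.60 and 5.72 in CD44+/+ AMs and 5.03, 4.16 and 4.69 in CD44-/- AMs, a difference of -0.30. Of the ratios this was the one that varied least among CD44+/+ samples, and each of these 2 comparisons gave p = 0.1 in the exact two-sided permutation test (n = 3 per genotype), or 0.133 adjusted over the 4 ratios.

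**Figure D3:**
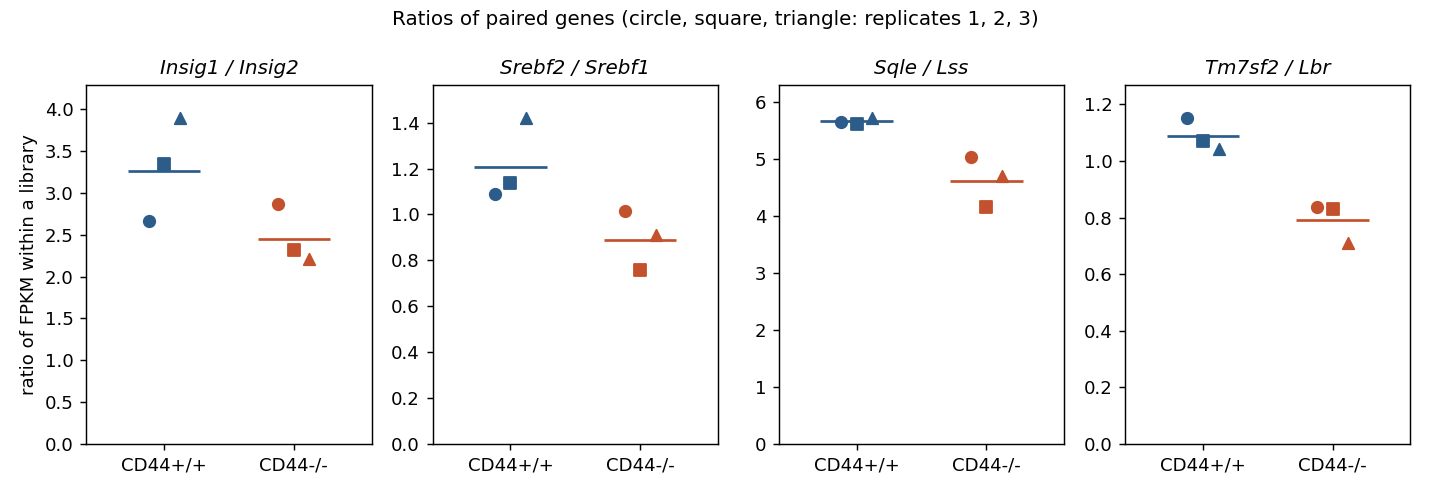
Ratios of FPKM of paired genes within a sample (y axes, linear from 0), by genotype (x axes). Each point is 1 sample and each line the geometric mean of its genotype. The points of the genotypes are apart for Srebf2 over Srebf1, Sqle over Lss and Tm7sf2 over Lbr, and overlap for Insig1 over Insig2.

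Most of the enzyme genes also varied together within a genotype. Among CD44+/+ samples, replicate 3 was the highest in 17 of the 20 enzyme genes and replicate 1 the lowest in 15, where the same samples held those places in 18.3% and 20.2% of all genes tested. Among CD44-/- samples, replicate 2 was the lowest in 16 of the 20 enzyme genes and replicate 1 the highest in 14, against 31.3% and 43.6% of all genes. CD44-/- replicate 1 was the highest of its genotype in all 7 control genes. Among CD44+/+ samples the control genes were split. In 4 of them, Scap, Insig2, Mbtps1 and Mbtps2, replicate 1 was the highest and replicate 3 the lowest, the reverse of most enzymes. In the other 3, replicate 3 was the highest and replicate 1 the lowest. Set against the CD44+/+ sample of the same number, the median log2 difference of the 20 enzymes was -0.08 for replicate 1, with 14 lower, -0.46 for replicate 2, with 19 lower, and -0.43 for replicate 3, with 17 lower. Over all genes tested these medians were -0.02, 0.03 and 0.04, with 55.5%, 42.5% and 40.2% of genes lower.

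**Figure D4:**
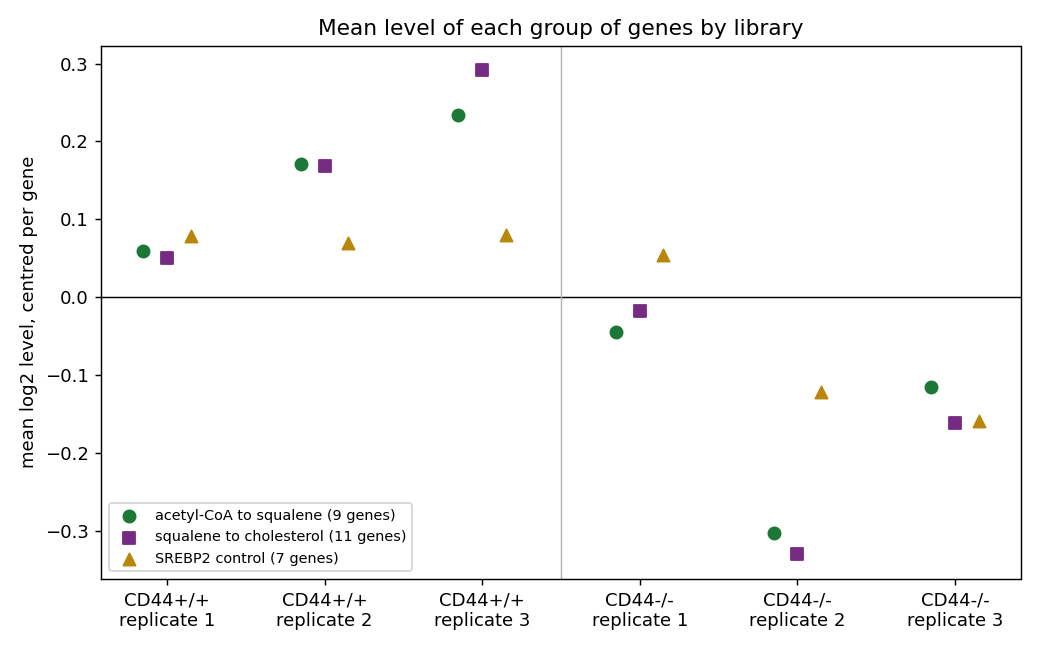
Mean log2 level of each group of genes (y axis, each gene centred on its mean over the 6 samples) in each sample (x axis), for the 9 genes before squalene, the 11 genes from squalene to cholesterol and the 7 control genes. Both enzyme groups are highest in CD44+/+ replicate 3 and lowest in CD44-/- replicate 2, and replicate 1 of the genotypes lie closest together.

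Other measures of the samples were set beside these levels. CD44-/- replicate 2 had the lowest relative depth and the highest summed level of erythroid genes, 336 FPKM, against 18.8 and 17.5 FPKM in the other CD44-/- samples and 14.7, 124 and 30.1 FPKM in CD44+/+ replicates 1, 2 and 3. All 5 erythroid entries tested had higher fitted levels in CD44-/- AMs, where 55.8% of all genes did, none at an unadjusted p under 0.05, and each of the 5 changed sign with 1 sample left out. Without CD44-/- replicate 2 the fitted level was lower in 22 of the 27 genes, and 14 were lower at an unadjusted p under 0.05, where 2.03% of all genes were. Acat2, Mvk, Lss, Nsdhl and Dhcr7 were the 5 of the 19 that no longer reached it. With this sample left out their log2 fold changes, in that order, were -0.20, -0.16, -0.30, -0.19 and -0.20, against -0.20, -0.24, -0.36, -0.27 and -0.25 with all 6 samples. Cell cycle genes had higher fitted levels in 9 of 10 cases, where 55.8% of all genes did, and 4 of the 10 at an unadjusted p under 0.05, where 4.75% of all genes did. Their summed level was 353, 373 and 371 FPKM in CD44+/+ replicates 1, 2 and 3 and 352, 419 and 421 FPKM in CD44-/- replicates 1, 2 and 3. Among CD44-/- samples the 2 with the lower enzyme sums had the higher cell cycle sums, whereas among CD44+/+ samples replicate 1 was the lowest in both. Alveolar type 2 cell genes, which mark cells of the alveolar wall, summed to 166 FPKM in CD44-/- replicate 3 and to between 87.4 and 118 FPKM elsewhere, with 3 of the 5 tested higher in CD44-/- AMs by fitted level and 2 of the 5 (Sftpc and Sftpb) at an unadjusted p under 0.05, against the same 55.8% and 4.75% of all genes. Airway secretory genes had lower fitted levels in CD44-/- AMs in 6 of 6 cases, where 44.2% of all genes did, none at an unadjusted p under 0.05, with a median log2 fold change of -0.34. They summed to 842, 1401 and 936 FPKM in CD44+/+ replicates 1, 2 and 3 and to 1134, 770 and 652 FPKM in CD44-/- replicates 1, 2 and 3. As for the enzymes, replicate 1 was the lowest CD44+/+ sample and the highest CD44-/- sample in this sum, but the genotypes overlapped. The part of erythroid RNA, cell cycle, airway secretory or type 2 cells in the sterol gene levels was not tested. AM markers, Itgax, Siglecf, Marco and Chil3 among them, were present in every sample. Among the 11 tested, 10 did not reach an unadjusted p under 0.05. Krt79 was lower at that measure, where 2.94% of all genes were. The mean log2 level of the 11 AM markers was taken with each gene centred over the 6 samples. It was -0.08, 0.0028 and 0.07 in the CD44+/+ samples, by replicate number, and 0.05, -0.08 and 0.03 in the CD44-/- samples. Within each genotype this is the order of the enzymes, over a smaller range. Neutrophil genes summed to 33.7, 80.1 and 66.4 FPKM in CD44+/+ replicates 1, 2 and 3 and to 46.3, 53.1 and 50.4 FPKM in CD44-/- replicates 1, 2 and 3. Replicate 1 was the lowest within each genotype, as for the enzymes in CD44+/+ samples but unlike them in CD44-/- samples. Of the 5 tested, 3 had lower fitted levels in CD44-/- AMs, none of them at an unadjusted p under 0.05. Csf3r, 1 of the 5, was higher at an unadjusted p under 0.05, where 4.75% of all genes were. The part of the AM markers and neutrophil genes was not tested either. Lymphocyte genes summed to at most 2.05 FPKM, monocyte and dendritic cell genes to at most 7.42 FPKM and fibroblast genes to at most 0.276 FPKM in any sample.

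Other genes of the pathway were taken as lists. Further targets of SREBP2 and its relative SREBP1 numbered 14 tested genes. With Fads2 left out of these, Fasn, Aacs and Tmem97 were lower at an unadjusted p under 0.05 and none was higher, which 2.94% and 4.75% of all genes tested were. Fads2, the delta-6 desaturase of polyunsaturated fatty acids, was also among the 14, but passed the limit of a mean of 0.5 FPKM only through CD44+/+ AMs and is left out of that count. It measured 0.579, 0.701 and 1.08 FPKM in CD44+/+ AMs (mean 0.787) and 0.430, 0.232 and 0.442 FPKM in CD44-/- AMs (mean 0.368), and these values are given without a test. Mmab, an enzyme of vitamin B12 metabolism next to Mvk, had a log2 fold change of -0.32 with overlapping samples.

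In the branch that uses farnesyl and geranylgeranyl diphosphate for prenylation, dolichol and coenzyme Q, none of 13 genes reached an unadjusted p under 0.05 in either direction. Its median log2 fold change was -0.03. The values of Pdss1 (-0.16) and Rabggtb (-0.15) lay between -0.42 and 0.09 and between -0.21 and -0.09 with 1 sample left out, so the sign of Pdss1 turned. Of 13 genes for the sterol-dependent degradation and the transport of the SREBP2 machinery, 3 were higher at an unadjusted p under 0.05, namely the ubiquitin ligase gene Rnf145 (log2 fold change 0.20) and the endoplasmic reticulum membrane proteins Erlin1 and Erlin2 (0.19 and 0.16), and Hsp90ab1 was lower (-0.15), against the same 4.75% and 2.94% of all genes. Paqr3, a Golgi anchor of SCAP, had a value of -0.27 with overlapping samples, which lay between -0.38 and -0.09 with 1 sample left out. None of 11 tested genes for cholesterol esters and lysosomal release reached that measure. Gramd1b (0.27) lay between 0.17 and 0.34 and Osbpl2 (0.11) between 0.08 and 0.13 with 1 sample left out.

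Genes of oxysterol synthesis and of LXR, the nuclear receptor that senses oxysterols, had 4 of 10 tested members higher at an unadjusted p under 0.05 (Apoe, Abca1, Mylip and Nr1h3) and 1 lower (Hsd3b7), where 4.75% of all genes were higher and 2.94% lower. Apoe, the apolipoprotein that accepts effluxed cholesterol, measured 43.9, 48.3 and 72.6 FPKM in CD44+/+ AMs and 189, 178 and 144 FPKM in CD44-/- AMs. It was the only gene of these lists with an adjusted p under 0.05, at a log2 fold change of 1.66 ± 0.18 (SE, limma adjusted p = 0.0128). Its adjusted p in limma was 0.0943 with the replicate block, 0.0710 without CD44+/+ replicate 2, 0.0958 without CD44-/- replicate 2 and 0.208 without both, and lay between 0.114 and 0.147 with no filter, without a trend or with robust eBayes. The log2 fold change of Apoe lay between 1.55 and 1.66 in all of these settings.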

How the data were processed

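RNA from AMs was sequenced in 3 samples per genotype, with genotype and replicate taken from the labels. STAR was used by the authors for alignment to mm10 and Cufflinks for the deposited FPKM of 24341 gene entries, of which 101 join more than 1 gene name and 1 lacks a value. The deposited FPKM values are normalized for depth and transcript length. Read totals are unknown, so counting error has no interval. The table also holds the authors' Cuffdiff results, which were not used. Name and position columns are in another order than the values, so positions were looked up by gene name.

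The 10800 genes whose mean reached 0.5 FPKM were compared on log2(FPKM + 0.1) with limma 3.58.1 in R 4.3.3 (lmFit, eBayes with a trend, two-sided, Benjamini-Hochberg over all genes tested). This differs from the study's Cuffdiff, which needs the reads. Ratios were compared by exact permutation over the samples. The code was tested on simulated data. Promoter windows, 250 bases before to 50 after a start site, came from RefSeq.

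The 27 genes, the lists and the tests were chosen with earlier results of these data known. Named were the 27 genes, Cd44 and, from each further list, every gene with an adjusted p under 0.05 and otherwise the 2 with the largest absolute log2 fold change. Acat3, Ctsb, Vps51 and other genes named for a count were chosen after their values were seen. Same-numbered samples deviated together from their group means (correlations 0.212, 0.132 and 0.211), a hint from the data that the numbers pair the samples, since no source names a pairing. The replicate number as a block was therefore tried, with other pseudocounts, filters and scalings, eBayes settings and leaving out samples. Some genes of this pathway are not reported here.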

Additional observations from a re-analysis of the deposited data

How the results depend on the processing

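Of the 27 genes, 0 had an adjusted p under 0.05 in any alternative, including the fit with the replicate number as a block, where 19 were lower at an unadjusted p under 0.05, as without it. With the replicate block 9 of all genes tested had an adjusted p under 0.05, against 12 without it (8 higher, 4 lower), 7 with no filter on low values, between 6 and 36 with 1 sample left out, and 2 without replicate 2 of both genotypes, an alternative chosen after the data were seen. Leaving out CD44+/+ replicate 1 gave the 36, and leaving out CD44-/- replicate 2 gave the 6. Leaving out CD44+/+ replicate 2 gave 7 and leaving out CD44-/- replicate 1 gave 22. The 19 lower genes became between 12 and 19 with 1 sample left out, 10 without replicate 2 of both genotypes, and 18 or 19 otherwise. The number of the 27 with a lower fitted level lay between 21 and 25, and the number of the 27 lower without overlap between 13 and 19 with 1 sample left out, where separation is easier to reach and between 7.56% and 11.2% of all genes showed it. Scaling moved the split of all genes at an unadjusted p under 0.05 from 2.94% lower and 4.75% higher to 3.89% and 4.43% with median-ratio scaling and 4.13% and 4.21% with quantile normalization. The median of the 9 genes before squalene lay between -0.32 and -0.24 and that of the 11 later genes between -0.44 and -0.30 over all alternatives, while that of the 7 control genes lay between -0.05 and 0.01. Among the 27 genes the sign of the log2 fold change reversed only in Ebp, Scap, Insig2, Mbtps1 and Mbtps2, all with values near 0. With 1 sample left out, Ebp lay between -0.076 and 0.0066 (above 0 without CD44-/- replicate 2), Scap between -0.017 and 0.061 (below 0 without CD44+/+ replicate 2 or 3 or CD44-/- replicate 1), Insig2 between -0.054 and 0.11 (below 0 without CD44+/+ replicate 3), Mbtps1 between -0.041 and 0.051 and Mbtps2 between -0.042 and 0.011 (both above 0 without CD44+/+ replicate 1 or CD44-/- replicate 3). Scap was -0.00089 with median-ratio scaling, and without replicate 2 of both genotypes Scap was -0.012 and Ebp 0.039. The cause of these changes was not tested. With 1 sample left out, the log2 ratio differences lay between -0.56 and -0.29 for Insig1 over Insig2, -0.54 and -0.33 for Srebf2 over Srebf1, -0.36 and -0.22 for Sqle over Lss, and -0.50 and -0.38 for Tm7sf2 over Lbr. The read totals are unknown and only relative depths could be had, so the counting error of low genes such as Fads2 cannot be given.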
